A study of Mus musculus with 6 samples.

Results

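The NRF2 antioxidant programme, with the glutathione and thioredoxin systems, was followed through 41 genes chosen by symbol, and 37 of them were matched to a probe set among the 19505 genes tested. RAW264.7 cells, a mouse macrophage line, were grown for 3 days on a modified PEEK surface (3 arrays) or on pristine PEEK, the control (3 arrays). PEEK is polyetheretherketone, an implant polymer. What the modification consists of is not stated in the labels. The cells of both groups carried no engineered allele named in the labels and shared the same high-glucose medium with fetal bovine serum. RNA was labelled from 250 ng per sample and read on Affymetrix arrays as log2 signals, on which a step of 1 is a doubling. The labels do not tie the replicates to independent experiments, and the p-values therefore reflect replicate spread that may be technical only.

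NRF2, encoded by Nfe2l2, is a transcription factor that KEAP1 holds in the cytoplasm and sends for degradation until electrophiles or oxidants modify KEAP1. NRF2 then enters the nucleus, pairs with a small MAF protein and binds antioxidant response elements, which the repressor BACH1 can also occupy. Its known targets supply cysteine and glutathione, reduce thioredoxin and peroxiredoxins, make NADPH and conjugate or export electrophiles. In macrophages these systems are known to limit damage from the oxidants that the cells themselves produce.

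Most genes of this programme that passed the test were lower on modified PEEK. The genes were chosen with earlier results of these data known, so the shares below describe this list and do not test for an excess. By limma with Benjamini-Hochberg adjustment over all genes, 10 of the 37 measured genes (27.0%) were lower and 1 (2.70%) was higher at an adjusted p under 0.05, against 5.15% of all 19505 genes lower and 5.24% higher (10.4% in either direction). The genes that fell were Slc7a11, Gclm, Me1, Gsto1, Esd, Srxn1, Cat, Abcc1, Prdx1 and Txnrd1, and the one that rose was Idh1. The other 26 did not pass. Of the 37, 2 were below a background of 3.72 (defined below) on both surfaces, against 6276 of all 19505 genes. Without the lowest 50% of genes by signal, 15.6% of all genes were lower and 15% higher. In that setting 13 of the 33 genes of the programme still tested were lower. No such share was computed for arrays that did not overlap. All 3 modified PEEK arrays lay below all 3 pristine PEEK arrays for 16 of the 37 (43.2%), against 14.5% of all genes, and above them for 6 (16.2%), against 14.3% of all genes. The median change of the 37, modified minus pristine PEEK, was -0.13, beside 0.0088 for all genes. It was -0.0721 without modified PEEK replicate 2. By array, the median deviation of the 37 from their pristine PEEK means was -0.0090, -0.11 and -0.12 on modified PEEK. On pristine PEEK it was -0.0224, 0.0224 and 0.0050, so modified PEEK replicate 1 lay within the pristine range. With the arrays scaled to the poly-A spike-in controls, the median of all genes moved to 0.26 and that of the 37 to 0.12, which is -0.14 relative to all genes, and 6 of the 37 were lower. That scaling gave 1575 genes higher and 290 lower over the whole table, where the deposited scale gave 1023 higher and 1004 lower.

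**Figure D1:**
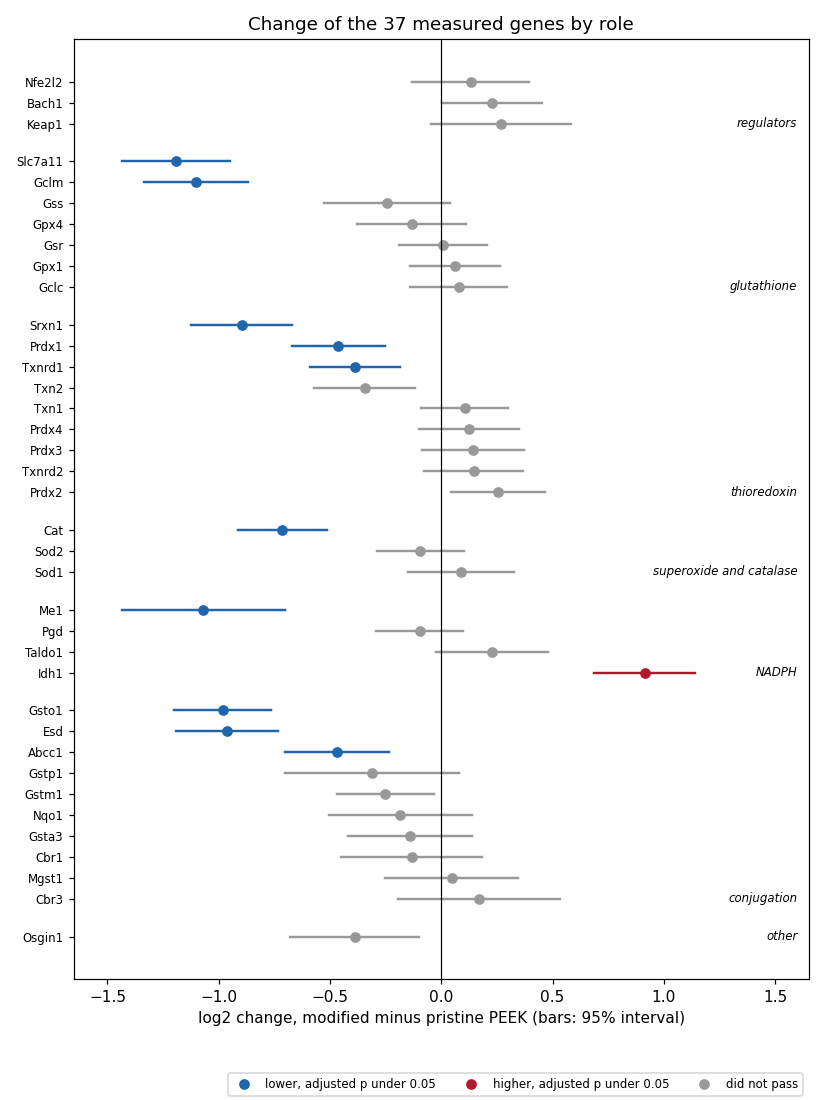
Log2 change (modified minus pristine PEEK, x axis) of the 37 measured genes, grouped by role, with points for the estimates and bars for 95% intervals. The 10 genes that passed as lower run from -1.19 (Slc7a11) to -0.39 (Txnrd1), Idh1 stands alone as higher at 0.91, and the 3 regulators lie right of 0 without passing.

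The arrays differed little as a whole. Array medians over genes were between 4.98 and 5.10, and 65.5% to 68.2% of genes per array exceeded a background of 3.72, set at the 95th percentile over 1412 genes of olfactory and vomeronasal receptors. The poly-A spike-in controls averaged 6.71 ± 0.14 on modified and 6.96 ± 0.15 on pristine PEEK, and hybridisation controls 9.14 ± 0.11 on modified and 9.31 ± 0.08 on pristine PEEK (SD, n = 3 each). Their part in the results was not tested. Of 9 measured macrophage marker genes, 8 were above background on both surfaces, and the efferocytosis receptor gene Mertk was below it on both. In limma 4 of the 9 passed, 2 lower and 2 higher (22.2% each), against 5.15% and 5.24% of all genes. Fcgr1, a receptor for IgG, was 1.80-fold lower (adjusted p = 0.00166), and Itgam, the CD11b integrin chain, was 1.51-fold lower (adjusted p = 0.00544). Adgre1, encoding F4/80, was 1.45-fold higher (adjusted p = 0.00669), and Mertk passed as higher below background, so no fold is given. The part of these marker changes in the results was not tested. None of 18 measured marker genes of fibroblasts, epithelium, endothelium, lymphocytes or neutrophils passed in limma (1 had an unadjusted p under 0.05), and 12 of them were below background on both surfaces. As these are bulk samples, fewer cells of a kind and less RNA per cell cannot be told apart.

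The antioxidant response element core was looked for in the promoters of these genes, because it is the sequence through which NRF2 is known to act. RefSeq promoter windows of build GRCm38.p6, 250 bases before to 50 bases after a start, were searched on both strands for TGACNNNGC. A version of this core, TGACTCAGC, also holds the AP-1 motif TGANTCA. At least 1 window was given for 37 of the 41 genes, which are not the same 37 as those with a probe set. Gclc, Gsr, Prdx6 and Abcc1 had none. The core was present for 11 of those 37 genes (29.7%), against 14.0% of all genes with a window. The 41 genes were chosen as an NRF2 programme, so a share above that of all genes may come from the choice. The part of NRF2 in the falls was not tested. Among the genes that fell it was present for 5 of 9 (55.6%), namely Gclm, Prdx1, Me1, Srxn1 and Txnrd1. Among genes that did not pass it was present for 5 of 24 (20.8%), and it was absent from the windows of Idh1. By window the figures were 23.4% for the 41 genes and 12.4% for all. They were 5 of 12 (41.7%) for the genes that fell and 5 of 30 (16.7%) for those that did not pass. A match is a stretch of letters and not a shown binding site, and no match says nothing about sites elsewhere.

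Matches in the 5 genes that fell and held the core are shown, with the matched letters in capitals on the strand of the gene. The bases before the start are printed for Gclm (chr3:122245307-122245556, plus strand) and Prdx1 (chr4:116685349-116685598, plus strand), where the matches read TGACGGTGC and TGACTCAGC on the opposite strand. Short windows are given for Me1 (chr9:86695902-86695930, minus strand, beginning 6 bases before the start), Srxn1 (chr2:152105542-152105570, plus strand, beginning 28 bases after it) and Txnrd1 (chr10:82859104-82859132, plus strand, beginning 92 bases before it), where the distances are those of the first matched letter.
Gclm: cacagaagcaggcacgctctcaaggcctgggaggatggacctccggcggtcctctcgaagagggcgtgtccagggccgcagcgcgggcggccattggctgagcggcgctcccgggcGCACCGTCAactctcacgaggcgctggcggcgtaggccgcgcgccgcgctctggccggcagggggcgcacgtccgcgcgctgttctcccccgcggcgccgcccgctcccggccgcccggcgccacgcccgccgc
Prdx1: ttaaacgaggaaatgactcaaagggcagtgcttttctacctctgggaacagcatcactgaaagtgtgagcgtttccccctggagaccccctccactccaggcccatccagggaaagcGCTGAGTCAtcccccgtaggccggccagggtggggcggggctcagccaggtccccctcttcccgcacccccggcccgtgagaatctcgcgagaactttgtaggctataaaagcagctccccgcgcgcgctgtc
Me1: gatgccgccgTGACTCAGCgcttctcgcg
Srxn1: gcagtgggcaGCTAGGTCAgagtgagaca
Txnrd1: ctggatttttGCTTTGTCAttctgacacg

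None of the 3 regulators passed in limma, and 1, Bach1, was higher at an unadjusted p under 0.05. Of all 19505 genes, 11.4% were lower and 11.3% higher at that unadjusted threshold. Nfe2l2 had 6.80, 6.81 and 6.49 on modified PEEK, against 6.54, 6.62 and 6.55 on pristine PEEK, and the groups overlapped. Its difference was 0.13 with a 95% interval from -0.13 to 0.40 (limma adjusted p = 0.573). Keap1, encoding the sensor that restrains NRF2, had 7.40, 6.87 and 7.13 on modified PEEK, against 6.89, 6.88 and 6.83 on pristine PEEK. Modified PEEK replicate 2 was as low as the control arrays, and the difference of 0.27 had an interval from -0.05 to 0.58. Bach1, encoding the competing repressor, had 7.94, 7.79 and 7.97 on modified PEEK, against 7.62, 7.76 and 7.64 on pristine PEEK. These groups did not overlap, but the difference of 0.23 did not pass (limma adjusted p = 0.214). NRF2 is regulated largely through the stability of its protein, which RNA arrays do not measure.

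In the glutathione system, 2 of 7 genes (28.6%) fell in limma and 0 rose, against 5.15% and 5.24% of all genes. At an unadjusted p under 0.05 also 0 were higher, against 11.3% of all genes. A count of 0 among 7 genes is near these shares. The median change was -0.13, which turned to 0.11 with spike scaling (-0.14 relative to all genes). Slc7a11 encodes the light subunit of the cystine importer, which brings in the cysteine that limits glutathione synthesis. It had 8.93, 8.63 and 8.84 on modified PEEK, against 10.02, 9.96 and 10.00 on pristine PEEK. The groups were far apart relative to their spread, with a 95% interval of the difference from -1.43 to -0.95 (2.28-fold lower, limma adjusted p = 0.000412).

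Gclm, the modifier subunit of glutamate-cysteine ligase, had 8.38, 8.60 and 8.58 on modified PEEK, against 9.70, 9.58 and 9.58 on pristine PEEK (2.15-fold lower, limma adjusted p = 0.000475). Gclc, the catalytic subunit of the same enzyme, had 8.83, 8.83 and 8.71 on modified PEEK, against 8.74, 8.78 and 8.62 on pristine PEEK. The Gclm groups were separated and the Gclc groups overlapped. The Gclc difference was 0.08 with an interval from -0.14 to 0.30, which does not reach the size of the Gclm fall, and the difference between the 2 changes was not tested.

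The later steps did not pass. Gss, which completes glutathione, averaged 6.01 ± 0.17 on modified and 6.25 ± 0.14 on pristine PEEK (SD, n = 3 each), with a difference of -0.24 and an interval from -0.52 to 0.04. Gsr, which regenerates reduced glutathione with NADPH, averaged 9.15 ± 0.02 on modified and 9.15 ± 0.03 on pristine PEEK, and its interval ran from -0.19 to 0.20. The Gss arrays of modified PEEK all lay below those of pristine PEEK, while the groups overlapped for Gsr and for both peroxide-reducing enzymes that spend glutathione. Gpx1, the abundant cytosolic glutathione peroxidase, averaged 10.55 ± 0.02 on modified and 10.49 ± 0.06 on pristine PEEK. Gpx4, which reduces lipid hydroperoxides in membranes, had 9.17, 8.88 and 8.96 on modified PEEK, against 9.07, 9.20 and 9.13 on pristine PEEK, with an interval of the difference from -0.38 to 0.11.

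**Figure D2:**
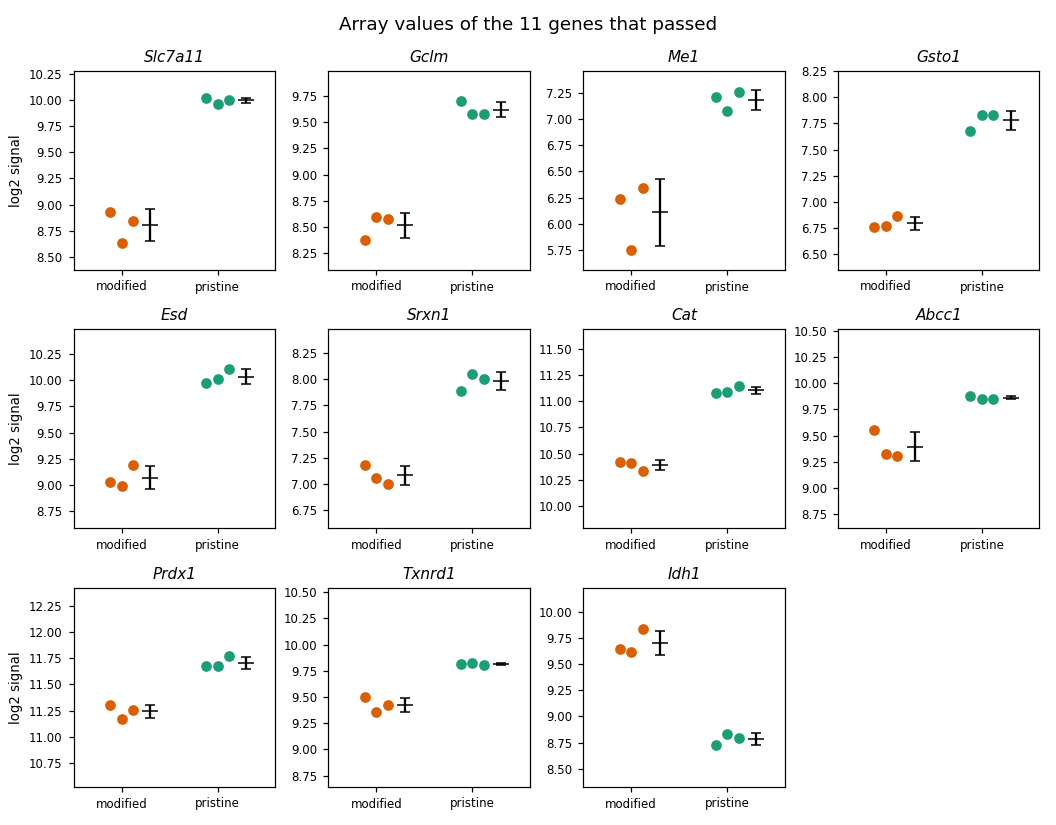
Log2 signal of each array for the 11 genes that passed, with the 3 modified PEEK arrays left of the 3 pristine PEEK arrays, and the mean and SD beside each group. All panels span the same number of log2 units around their own level. In none do the groups overlap, and Me1 on modified PEEK shows the widest spread, from 5.75 to 6.34.

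In the thioredoxin system, 3 of 9 measured genes (33.3%) fell in limma and 0 rose, against 5.15% and 5.24% of all genes. At an unadjusted p under 0.05, 1 was higher, against 11.3% of all genes. Prdx5 and Prdx6 were not matched to a probe set and were not analysed here. The median change of the 9 was 0.10, of the opposite sign to the genes that passed, and 0.35 with spike scaling (0.0960 relative to all genes). Srxn1 encodes sulfiredoxin, which repairs overoxidised peroxiredoxins. It had 7.18, 7.05 and 7.00 on modified PEEK, against 7.89, 8.05 and 7.997 on pristine PEEK (1.86-fold lower, limma adjusted p = 0.00101). The groups were separated by several times their spread.

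Prdx1, the cytosolic peroxiredoxin long known as a stress-induced protein of macrophages, had 11.30, 11.17 and 11.26 on modified PEEK, against 11.67, 11.67 and 11.77 on pristine PEEK. The fall was 1.38-fold (limma adjusted p = 0.015), with every modified PEEK array below every control array. Txnrd1, the cytosolic thioredoxin reductase, had 9.50, 9.36 and 9.43 on modified PEEK, against 9.82, 9.82 and 9.80 on pristine PEEK (1.31-fold lower, limma adjusted p = 0.0283). Neither passed with spike scaling, where the differences were -0.22 for Prdx1 (adjusted p = 0.351) and -0.14 for Txnrd1 (adjusted p = 0.540), and Txnrd1 did not pass with the arrays centred on their medians (adjusted p = 0.0762). Both calls were also lost when some single arrays were left out. For Prdx1 the adjusted p was 0.0502 without modified PEEK replicate 3, and 0.0507, 0.0536 and 0.0785 without pristine PEEK replicates 1, 2 and 3. For Txnrd1 it was 0.0715 and 0.0814 without modified PEEK replicates 2 and 3, and 0.0954, 0.106 and 0.104 without pristine PEEK replicates 1, 2 and 3. The group's count of falls was 2 without modified PEEK replicate 2 and 1 without any one of the 4 arrays named for Prdx1.

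The thioredoxins did not pass. Txn1, the cytosolic thioredoxin that TXNRD1 reduces, had 11.14, 11.19 and 11.17 on modified PEEK, against 11.08, 11.04 and 11.06 on pristine PEEK, with a difference of 0.10 and an interval from -0.09 to 0.30. Txn2, the mitochondrial thioredoxin, had 8.41, 8.53 and 8.47 on modified PEEK, against 8.76, 8.75 and 8.95 on pristine PEEK. Its groups did not overlap, and its difference of -0.34 missed the threshold (limma adjusted p = 0.0675). It passed when the lowest 25% of genes by signal were left out (adjusted p = 0.0403). With spike scaling its difference was -0.096 (limma adjusted p = 0.691). Txnrd2, the mitochondrial reductase, averaged 7.86 ± 0.03 on modified and 7.72 ± 0.11 on pristine PEEK (SD, n = 3 each) and did not pass.

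Of the other peroxiredoxins, Prdx2, a cytosolic enzyme related to Prdx1, had 9.97, 10.04 and 10.04 on modified PEEK, against 9.68, 9.84 and 9.78 on pristine PEEK. It was thus higher on every modified PEEK array, with a difference of 0.25 and an interval from 0.04 to 0.47, but did not pass (limma adjusted p = 0.138). When the variance model followed signal intensity (an intensity trend), it passed as higher (adjusted p = 0.00196). Prdx3, the mitochondrial form, averaged 8.66 ± 0.10 on modified and 8.52 ± 0.08 on pristine PEEK. Prdx4, the form of the endoplasmic reticulum, had 9.10, 9.02 and 8.87 on modified PEEK, against 8.87, 8.88 and 8.87 on pristine PEEK. Both sets of arrays overlapped.

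Of the enzymes that remove superoxide and hydrogen peroxide directly, 1 of 3 fell, against 5.15% of all genes. Cat encodes catalase, the peroxisomal enzyme that splits hydrogen peroxide. It had 10.42, 10.41 and 10.33 on modified PEEK, against 11.08, 11.09 and 11.14 on pristine PEEK. This was a 1.64-fold fall (limma adjusted p = 0.00166) with replicates of each surface within a narrow band. Scaled to the poly-A spikes its difference was -0.47 and did not pass (adjusted p = 0.0926). Sod1, the cytosolic superoxide dismutase, averaged 9.74 ± 0.09 on modified and 9.65 ± 0.12 on pristine PEEK. Sod2, the mitochondrial form and a known NF-kB target, averaged 9.21 ± 0.02 on modified and 9.31 ± 0.01 on pristine PEEK, with an interval from -0.29 to 0.10.

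Genes of NADPH supply moved in both directions. Of 4 measured genes 1 fell and 1 rose (25% each), against 5.15% and 5.24% of all genes. The median change was 0.0654 (0.31 with spike scaling, which is 0.0566 relative to all genes). G6pdx and Tkt were not matched and not analysed here. Me1, the cytosolic malic enzyme, which makes NADPH while turning malate into pyruvate, had 6.24, 5.75 and 6.34 on modified PEEK, against 7.21, 7.07 and 7.26 on pristine PEEK. It was 2.10-fold lower (limma adjusted p = 0.00407), and modified PEEK replicate 2 was the lowest array. Idh1, the cytosolic isocitrate dehydrogenase, which makes NADPH from isocitrate, had 9.65, 9.62 and 9.83 on modified PEEK, against 8.73, 8.84 and 8.79 on pristine PEEK. It was 1.88-fold higher (limma adjusted p = 0.000944), and its groups were separated in the direction opposite to Me1.

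The pentose phosphate genes measured did not pass. Pgd, the second NADPH-making dehydrogenase of that pathway, averaged 9.73 on modified and 9.83 on pristine PEEK, and its interval ran from -0.29 to 0.10. Taldo1, transaldolase of the non-oxidative branch, had 8.58, 8.35 and 8.42 on modified PEEK, against 8.09, 8.32 and 8.26 on pristine PEEK. The groups were adjacent without overlapping, and the difference of 0.23 had an interval from -0.02 to 0.48.

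**Figure D3:**
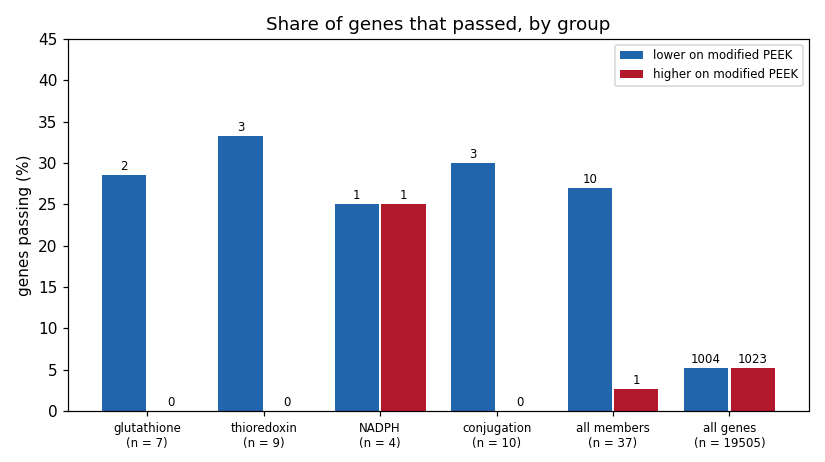
Share of measured genes (%, y axis) that passed as lower or higher on modified PEEK in the 4 main groups, in all 37 genes and in all 19505 genes, with the number of genes above each bar. The share lower is 25% to 33.3% in the 4 groups, which hold 4 to 10 genes each, against 5.15% of all genes. The NADPH group has 1 gene lower and 1 higher. The 3 thioredoxin genes lower were 1 with spike scaling and 1 with the replicate block. Without the lowest 50% of genes by signal, 15.6% of all genes were lower. The groups were chosen with earlier results of these data known.

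Among conjugation, reduction and export genes, 3 of 10 (30%) fell in limma and 0 rose, against 5.15% and 5.24% of all genes. At an unadjusted p under 0.05 also 0 were higher, against 11.3% of all genes. A count of 0 among 10 genes is near these shares. The median change was -0.22, which turned to 0.0294 with spike scaling (-0.23 relative to all genes). Gsto1, an omega-class glutathione transferase with thiol transferase activity, had 6.76, 6.77 and 6.86 on modified PEEK, against 7.67, 7.83 and 7.83 on pristine PEEK (1.98-fold lower, limma adjusted p = 0.000549). Esd, esterase D, which hydrolyses S-formylglutathione, had 9.03, 8.99 and 9.19 on modified PEEK, against 9.98, 10.01 and 10.11 on pristine PEEK (1.95-fold lower, limma adjusted p = 0.000735). For both genes the modified PEEK arrays were all below the control arrays by more than the range within either surface.

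Abcc1, an exporter of glutathione conjugates and leukotriene C4, had 9.56, 9.32 and 9.30 on modified PEEK, against 9.88, 9.85 and 9.85 on pristine PEEK (1.38-fold lower, limma adjusted p = 0.0231). Modified PEEK replicate 1 lay nearest the controls. The call was lost without modified PEEK replicate 2 or 3 (adjusted p = 0.0638 and 0.0855) and without pristine PEEK replicate 1, 2 or 3 (0.0833, 0.0798 and 0.0861), and the group's count was then 2. With spike scaling the difference was -0.22 and did not pass (adjusted p = 0.361).

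The other conjugation genes did not pass. Gstm1, a mu-class glutathione transferase, had 8.43, 8.33 and 8.38 on modified PEEK, against 8.61, 8.55 and 8.73 on pristine PEEK. It was lower on every modified PEEK array, with a difference of -0.25 (limma adjusted p = 0.154), and it passed with an intensity trend (adjusted p = 0.0204). With spike scaling its difference was -0.0043 (limma adjusted p = 0.988). Gstp1, the pi-class transferase, averaged 6.28 ± 0.34 on modified and 6.59 ± 0.12 on pristine PEEK, with an interval from -0.70 to 0.08. The mu-class, pi-class and alpha-class genes have near-identical paralogs, so their signals may be shared between copies. Gsta3, an alpha-class transferase, averaged 4.12 ± 0.16 on modified and 4.26 ± 0.14 on pristine PEEK, close to background.

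The carbonyl reductase genes also overlapped between surfaces. Cbr1 averaged 6.49 ± 0.17 on modified and 6.62 ± 0.21 on pristine PEEK, and Cbr3 5.01 ± 0.33 on modified and 4.84 ± 0.02 on pristine PEEK. Nqo1, the quinone reductase often used as a marker of NRF2 activity, was below the background of 3.72 on every array. It had 3.34, 2.87 and 3.15 on modified PEEK, against 3.42, 3.35 and 3.16 on pristine PEEK, so no fold is given. Mgst1, a microsomal glutathione transferase, was also below background, at 3.03 ± 0.07 on modified and 2.98 ± 0.23 on pristine PEEK (SD, n = 3 each). Osgin1, an oxidative stress-induced growth inhibitor, had 6.16, 6.30 and 5.95 on modified PEEK, against 6.66, 6.55 and 6.36 on pristine PEEK. Its groups did not overlap and its difference of -0.39 did not pass (limma adjusted p = 0.0998), although it did with an intensity trend (adjusted p = 0.0407). With spike scaling the Osgin1 difference was -0.14 (limma adjusted p = 0.617).

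Across 15 alternative settings, Slc7a11, Gclm, Me1, Gsto1, Esd, Srxn1 and Idh1 passed in the same direction in all 15. Cat failed in 1, the spike scaling, Prdx1 in 6, Abcc1 in 7 and Txnrd1 in 8. Without the lowest 50% of genes by signal, 33 of the 37 were still tested, and 13 of them were lower and 2 higher, beside 1521 lower and 1467 higher of all 9753 genes tested. With an intensity trend, 13 of the 37 were lower and 2 higher, beside 1719 lower and 1586 higher of all genes.

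**Figure D4:**
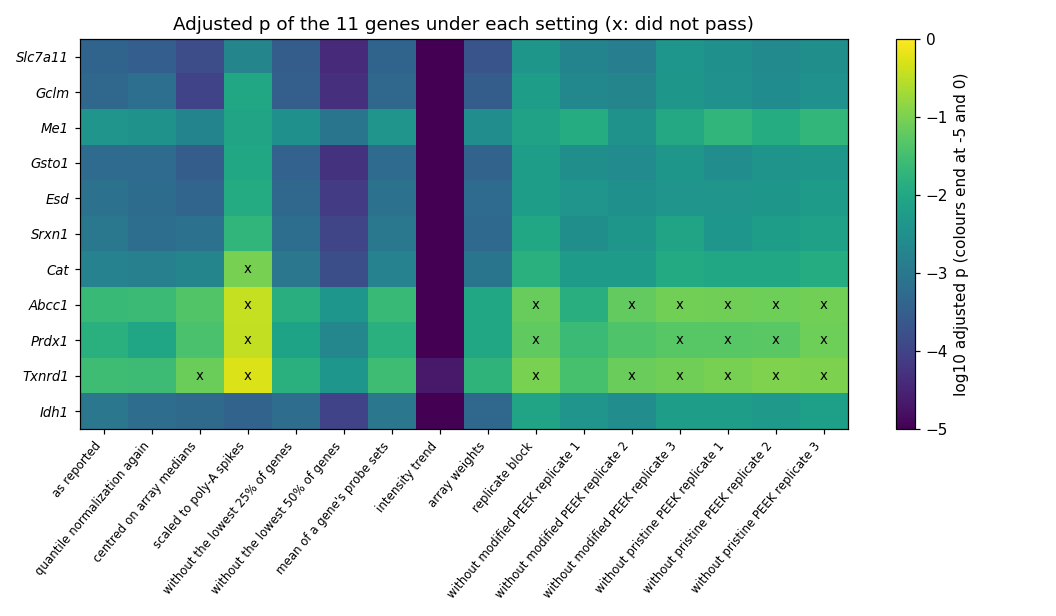
Adjusted p (log10, colour) of the 11 genes that passed, under the reported setting and 15 alternatives, with a cross where the gene did not pass. The crosses fall on Cat, Abcc1, Prdx1 and Txnrd1, and none on the other 7 genes.

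A wider list of 92 pathway genes outside the 41 was also chosen with earlier results of these data known. Of its 86 measured genes, 15 were below background on both surfaces, against 6276 of all 19505 genes. In limma 14 of the 86 were lower (16.3%) and 7 higher (8.14%), against 5.15% of all genes lower and 5.24% higher. Without the lowest 50% of genes by signal, 15.6% of all genes were lower and 15% higher. In that setting 20 genes of the list were lower and 10 higher, but the number of them still tested is not given. This also limits the comparisons of its smaller groups below. The median change of the 86 was -0.0695. With spike scaling 3 were lower and 11 higher, against 1.49% of all genes lower and 8.07% higher, and the median was 0.18, or -0.0783 relative to all genes. The number lower was 8 without modified PEEK replicate 2, and 7 without modified PEEK replicate 3 or without any 1 of the 3 pristine PEEK arrays. The share of all genes lower also dropped in these fits. It was 3.9% and 3.21% without modified PEEK replicates 2 and 3, and 3.12%, 3% and 2.81% without pristine PEEK replicates 1, 2 and 3. Of 11 partner and turnover genes 4 fell in limma and 0 rose. At an unadjusted p under 0.05 also 0 of the 11 were higher, against 11.3% of all genes. Of 5 haem and iron targets 2 fell in limma. Sqstm1, encoding p62, which binds KEAP1 and is an NRF2 target, had 10.32, 10.44 and 10.36 on modified PEEK, against 11.40, 11.42 and 11.49 on pristine PEEK (2.09-fold lower, limma adjusted p = 0.00035). Hmox1, haem oxygenase 1, was 3.15-fold lower (limma adjusted p = 6.5e-05). Nfe2l1, encoding the NRF2-related factor NRF1, was 1.54-fold lower (limma adjusted p = 0.00485), and it did not pass with spike scaling (adjusted p = 0.141).

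Of 11 other thioredoxin-linked genes, 2 passed as lower and 2 as higher (18.2% each), against 5.15% and 5.24% of all genes. Among those that passed, the sestrins, stress proteins that restrain mTORC1, went in opposite directions. Sesn1 had 8.08, 7.89 and 8.01 on modified PEEK, against 6.27, 6.44 and 6.24 on pristine PEEK (3.19-fold higher), and Sesn2 had 5.73, 5.71 and 5.58 on modified PEEK, against 6.40, 6.40 and 6.31 on pristine PEEK (1.62-fold lower, limma adjusted p = 0.00246). Sesn2 did not pass with spike scaling (adjusted p = 0.115). Idh2, the mitochondrial NADP-dependent isocitrate dehydrogenase, averaged 8.95 ± 0.05 on modified and 8.27 ± 0.09 on pristine PEEK (SD, n = 3 each) and was 1.61-fold higher (limma adjusted p = 0.00283). It was the only one of the 10 other measured NADPH genes to pass.

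Other conjugation and reduction genes split, with 6 lower (18.2%) and 4 higher (12.1%) of 33, against 5.15% and 5.24% of all genes. Of the 33, 12 were below background on at least 1 surface. Cbr2, a carbonyl reductase, had 7.15, 6.98 and 7.08 on modified PEEK, against 5.75, 5.48 and 5.68 on pristine PEEK (2.70-fold higher, limma adjusted p = 0.000228). Ephx1, microsomal epoxide hydrolase, was 1.84-fold higher, and the microsomal glutathione transferase genes Mgst2 and Mgst3 were 1.73-fold and 1.61-fold higher. In the opposite direction, Gsta2, an alpha-class transferase, was below background on modified PEEK and at least 1.38-fold lower. Gstm4 was 1.53-fold lower (limma adjusted p = 0.0241), a call lost without modified PEEK replicate 2 or 3 or pristine PEEK replicate 2 or 3 (adjusted p = 0.0529, 0.0842, 0.0915 and 0.0978). With spike scaling its difference was -0.37 and did not pass (adjusted p = 0.173). None of the 16 other genes of glutathione supply, use and breakdown passed in limma, although 3 were lower at an unadjusted p under 0.05, a threshold that 11.4% of all genes met as lower.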

How the data were processed

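The deposited values are log2 signals per probe set. The submitters' processing notes list RMA, with neither version nor role. The log2 scale was inferred from values between 0.941 and 12.4. For the array annotation no genome build was given in the sources used here. The table holds 29129 features, of which 6923 are controls, and 19572 probe sets carry 1 gene symbol each. No per-sample columns were left unused (0).

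The probe set with the highest mean over the 6 arrays was kept per gene (55 genes had several, none of the 37 matched genes did). Prdx5, Prdx6, G6pdx and Tkt matched no probe set by symbol or gene ID. Modified and pristine PEEK were compared in R 4.3.3 by limma 3.58.1 (lmFit, then eBayes with no trend or covariate, 4 residual and 4.09 prior degrees of freedom, two-sided), with p-values adjusted over all genes. Normalization between arrays would hide a change in total RNA per cell. Where 1 surface lay below background, a fold is given as a bound, computed from the brighter mean and the background level. The test was checked on simulated data. The 37 genes, the groups and the wider list were chosen with earlier results of these data known. All 41 genes were to be named, with the 12 largest changes among passing genes of the wider list.

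Alternatives were quantile normalization again, median centring, scaling to 24 poly-A spike probe sets, leaving out the lowest 25% or 50% of genes, averaging probe sets of a gene, an intensity trend, array weights, a block for the replicate number, and leaving out each array in turn. Precision is limited by having 3 arrays per surface.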

Additional observations from a re-analysis of the deposited data

How the results depend on the processing

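All genes passing, 2027 as reported, were 3305 with an intensity trend and 1268 with the replicate block. The 10 lower genes of the programme were 6 with spike scaling. The 1 higher gene became 2 with an intensity trend and 2 without the lowest 50% of genes. The median change of -0.13 became 0.12 with spike scaling. The 3 lower thioredoxin genes were 1 with spike scaling and 1 with the replicate block. Of the wider list, 23 were lower and 11 higher with an intensity trend. Leaving out 1 array gave 1142 to 1863 genes passing in all, a median from -0.13 to -0.0721, 7 to 10 lower genes of the programme and 1 to 3 lower thioredoxin genes. The lower counts of the glutathione and NADPH groups stayed at 2 and 1 under every setting, and that of the conjugation group was 2 to 4. Without the lowest 25% of genes, 2450 passed and without the lowest 50%, 2988.

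With the replicate block, 7 of the 10 lower genes passed, the losses being Prdx1 (adjusted p = 0.0609), Abcc1 (0.0675) and Txnrd1 (0.1004), and in the wider list Gstm4 (0.0792). The samples share only a number: deviations of same-numbered arrays from their group means correlated at -0.17, -0.16 and 0.0685, so the block was not taken as a pairing. Some genes that did not pass changed sign. With spike scaling these were Gss (0.0048), Gpx4 (0.11), Sod2 (0.15), Pgd (0.15), Nqo1 (0.0631), Cbr1 (0.12) and Gsta3 (0.11). Without 1 array they were Gsr (from -0.000449 to 0.0249), Cbr3 (from -0.0041 to 0.32) and Mgst1 (from -0.048 to 0.18). Spike scaling shifted the differences of all genes by the same amount, as the poly-A controls differed by -0.25 (modified minus pristine PEEK). The causes of the other changes were not tested. Low signal limits Nqo1, Mgst1 and Gsta3.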
